A study of Bubalus bubalis with 6 samples.

Results

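The genes described here are the matrix metalloproteinases (MMPs), the ADAMTS proteinases with the ADAMTS-like (ADAMTSL) proteins, and the tissue inhibitors of metalloproteinases (TIMPs). They were taken as every protein-coding row of the gene table whose symbol begins with MMP and a digit, with ADAMTS, or with TIMP and a digit. The rule found 44 of 24616 genes, of which 19994 are protein-coding. There were 17 MMP, 19 ADAMTS, 4 ADAMTSL and 4 TIMP genes on 22 chromosomes. RNA-seq of polyA RNA had been made from muscle stem cells (MuSCs) of water buffalo (Bubalus bubalis), isolated by enzyme digestion from fetal longissimus muscle. The 3 GM samples were proliferating cells in growth medium with fetal bovine serum. The 3 DM samples were cells moved, when nearly confluent, into a low-serum differentiation medium with horse serum for a few days. No allele or further agent is named for either group, the medium and the culture stage changed together, and the labels do not say whether each sample was a culture or an animal of its own. The p-values therefore measure the spread between these samples, which may be technical.

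MMPs are zinc-dependent enzymes that cut collagens and other matrix proteins, and most are made as inactive precursors that another proteinase has to cut. ADAMTS enzymes are secreted relatives that cut large proteoglycans, trim procollagens or act on fibrillin microfibrils, while ADAMTSL proteins share their outer domains but have no catalytic domain. TIMPs bind and block the active enzymes, and TIMP2 also takes part in the activation of MMP2 by the membrane-bound MMP14. In muscle these genes are known for remodelling the matrix around moving and fusing myoblasts.

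The counts on genes lay between 35615864 and 40305237 per sample. All 9 myogenic markers looked at had counts in both groups, and their summed expression was 2907 to 3150 CPM in the GM group and 2435 to 2955 CPM in the DM group. CPM scale the counts of a gene by library size after TMM (edgeR's correction for composition), and they compare samples for the same gene. MYOG, MYF6 and the fusion factor TMEM8C (myomaker) were upregulated and MYF5 was downregulated in DM samples. By less than 2-fold, MYOD1 was higher (log2 fold change 0.90) and PAX7, NCAM1 and CDH15 were lower (-0.92, -0.60 and -0.53). The groups did not overlap for any of these. DES made up most of the sum, with 2274 ± 103 CPM in the GM group and 2051 ± 323 CPM in the DM group, and overlapped. The summed fibroblast markers, 7 genes led by the collagen genes COL1A1 and COL3A1, were at 24827 to 25051 CPM in the GM group and at 77006 to 96951 CPM in the DM group, and 5 of the 6 tested were upregulated. The fibroblast marker TCF21 had 0, 1 and 7 counts in GM samples and 0 in every DM sample, too few to be tested. The summed pericyte markers were at 169 to 176 CPM in the GM group and 281 to 431 CPM in the DM group, with 1 of 4 genes upregulated. Adipocyte, endothelial and leukocyte markers summed to at most 13.9 CPM in any sample, but single genes changed in both directions. PPARG, CDH5, VWF and CD68 were downregulated, and FABP4, TEK and CD14 were upregulated, with overlap between groups for CDH5. The leukocyte marker CD14 went from 1.09 ± 0.20 to 7.40 ± 2.57 CPM, while PTPRC had at most 3 counts in every sample. The pericyte sum was carried by PDGFRB and, in DM replicate 3, by CSPG4, whereas MCAM was lower in DM samples (log2 fold change -0.65, adjusted p = 0.00171). RGS5, the remaining pericyte marker, had 2, 3 and 4 counts in GM samples and 1, 0 and 0 in DM samples. The fibroblast markers were higher in the same samples as most of the genes given below, and their part in the results was not tested. In bulk samples a change in the number of cells of a type and a change in RNA per cell cannot be told apart. DM replicate 3 stood apart from the other DM samples, since the chi-square over all genes, divided by its degrees of freedom, was 40.5 to 41.4 against them, compared with 11.7 between DM replicates 1 and 2 and 6.22 to 10.6 between GM samples. Results that rest on it are given with and without it.

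Of the 44 genes, 38 had at least 10 counts in total and were tested. In DM samples 13 were upregulated and 5 downregulated, where a call needed more than a 2-fold change and an adjusted p below 0.05 in the edgeR quasi-likelihood test over all genes. These 18 calls were 47.4% of the genes of the family that were tested, against 25.3% of the 15576 genes tested in all (15% upregulated and 10.3% downregulated). The median log2 fold change, DM over GM, was 0.71 for the family and 0.03 for all tested genes. With no minimum fold, 29 genes of the family had an adjusted p below 0.05, against 63% of all tested genes. Of these, 11 changed by less than 2-fold, 7 of them higher and 4 lower in DM samples, and 9 other genes did not reach that p. Values of the GM group and the DM group were apart for 29 of the 38 genes (20 higher and 9 lower in DM samples), compared with 68.8% of all tested genes. By family, the calls were 4 of 13 MMP genes, 10 of 17 ADAMTS genes, 2 of 4 ADAMTSL genes and 2 of 4 TIMP genes. Without DM replicate 3 the calls were 19, of which 17 were shared with the full set; MMP24 was lost, and MMP9 and ADAMTSL3 were gained.

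**Figure D1:**
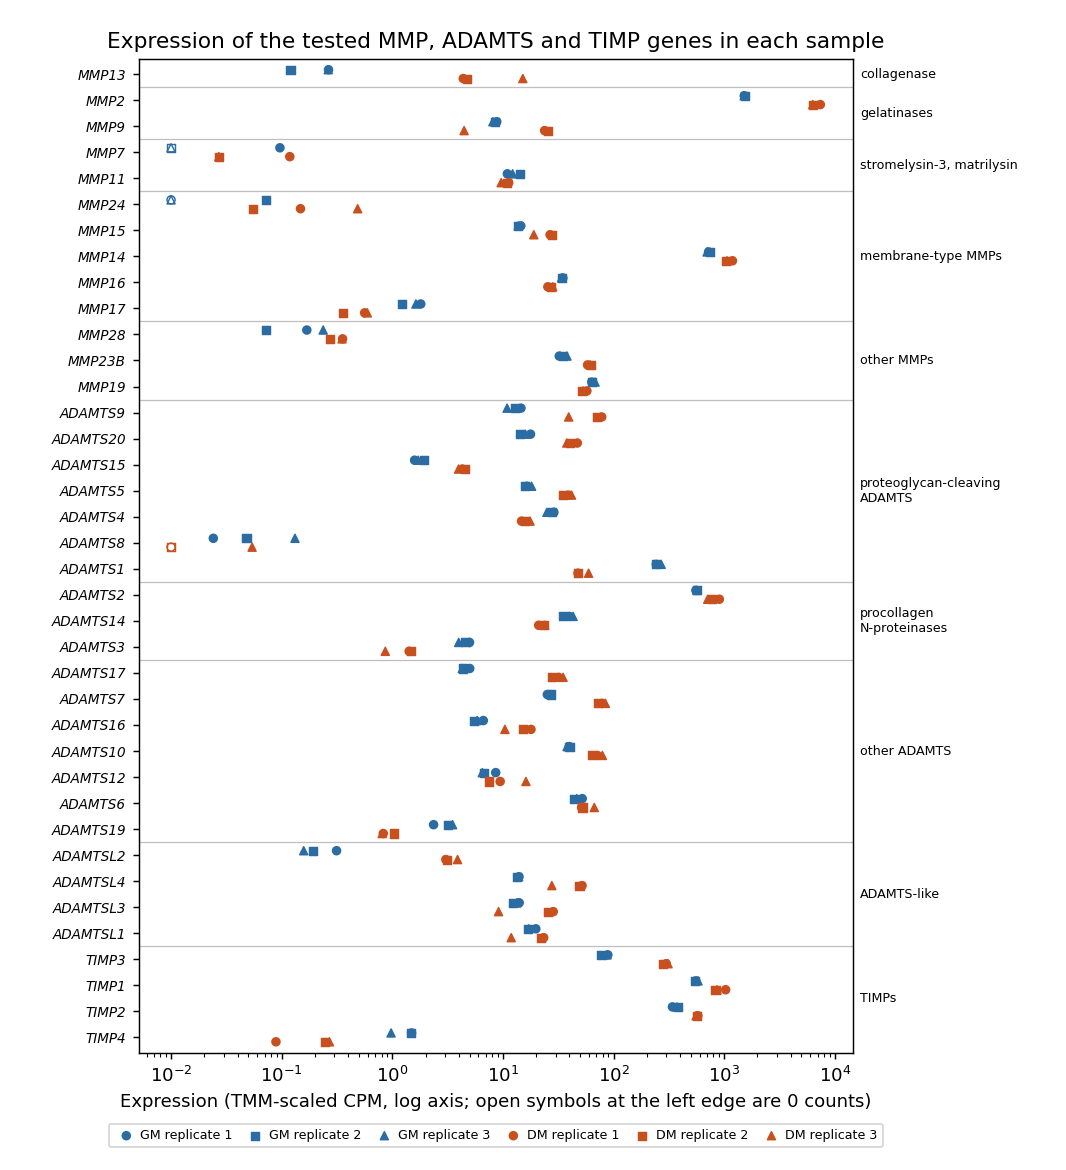
Expression of the 38 tested genes in each of the 6 samples, in TMM-scaled CPM on a log axis, with GM samples in blue, DM samples in orange, a symbol for each replicate number and the genes grouped by role. Samples of a group lie close together for most genes, MMP2 and MMP14 lie furthest to the right among the proteinases, and the triangle of DM replicate 3 is away from the other orange symbols for MMP9, MMP13, ADAMTSL1, ADAMTSL3 and ADAMTSL4.

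**Figure D2:**
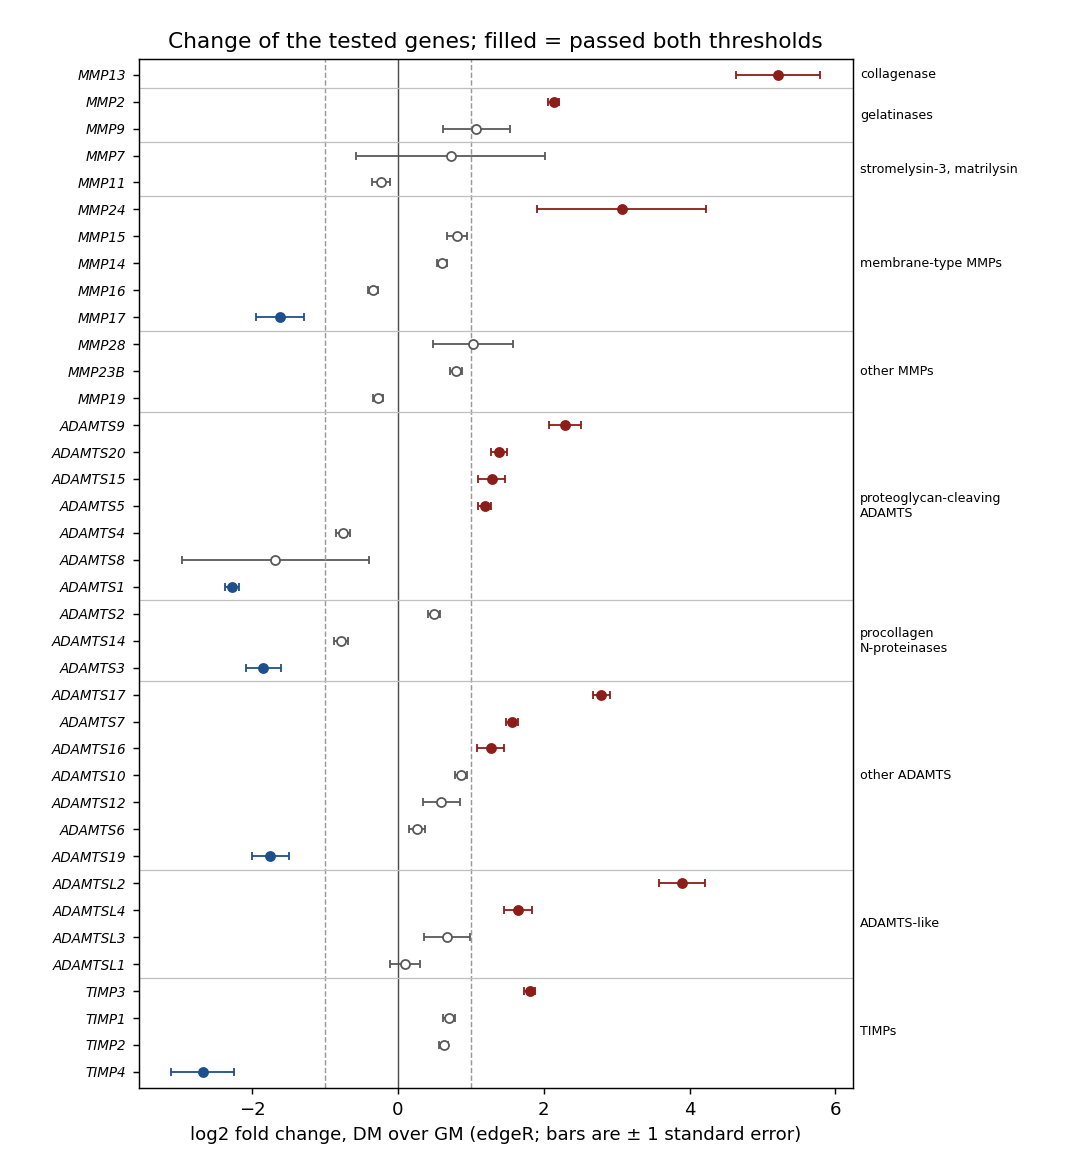
Log2 fold change, DM over GM, of the 38 tested genes by role, with bars of 1 standard error; dashed lines mark a 2-fold change, filled red points are the 13 upregulated genes, filled blue points the 5 downregulated genes, and open points passed at most 1 of the thresholds. Changes run from 5.21 for MMP13 down to -2.68 for TIMP4, and every role group except the collagenases, gelatinases and ADAMTSL proteins has points on both sides of 0.

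Levels of different genes were compared per length, as CPM per kilobase of the deposited gene length. On this scale the family was dominated by a few genes in both groups. TIMP1 led in GM samples at 692 ± 24.2 (SD, n = 3), ahead of MMP2 at 517 ± 4.13, MMP14 at 401 ± 12.3, TIMP2 at 340 ± 21.5, ADAMTS2 at 123 ± 1.57, ADAMTS1 at 59.2 ± 3.82 and TIMP3 at 39.7 ± 2.79. None of these neighbours in the order overlapped between samples. In DM samples MMP2 came before TIMP1, at 2274 ± 204 against 1126 ± 132, followed by MMP14 at 607 ± 45.6, TIMP2 at 526 ± 9.32, ADAMTS2 at 174 ± 21.6, TIMP3 at 139 ± 7.95 and MMP23B at 48.9 ± 1.71, again with no overlap between neighbours. MMP19 (24.3 ± 1.31) and ADAMTS10 (21.4 ± 2.24) followed and overlapped each other. ADAMTS1 moved from place 6 to place 13, ADAMTS7 from 17 to 10, ADAMTS17 from 27 to 16 and MMP13 from 33 to 24. From place 10 onward in DM samples, from ADAMTS7 down to MMP15 at place 20, each gene overlapped its neighbour.

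The summed level of the 44 genes was 2336 ± 31.4 CPM per kilobase in GM samples and 5098 ± 416 in DM samples, a ratio of 2.18. Their share of all gene counts was 0.468 to 0.473% in the GM group and 1.03 to 1.16% in the DM group. Most of the difference lay in the MMP genes, whose sum went from 1002 ± 15.2 to 2989 ± 249, and in the TIMP genes, whose sum went from 1073 ± 32.8 to 1790 ± 143. The sum of the ADAMTS genes differed less, with 251 ± 4.31 and 300.2 ± 21.6.

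MMP2, the gelatinase that cuts denatured collagen and basement membrane collagen, was the most abundant proteinase of the family in both groups. The gene (ENSBTAG00000019267, chr18:23828638-23855657 in the cattle coordinates of the deposited tables) was at 1520, 1539 and 1516 CPM in GM replicates 1 to 3 and at 7408, 6394 and 6336 CPM in DM replicates 1 to 3. The groups were far apart, and the log2 fold change was 2.14 (SE 0.074, adjusted p = 6.27e-09), a 4.40-fold rise. MMP2 made up 51.6 ± 0.37% of the summed MMP level in GM samples and 76.0 ± 0.52% in DM samples, while the share of MMP14 went from 40.0 to 20.3%. Of the whole family's level, MMP2 held 22.1% in GM samples and 44.6% in DM samples.

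MMP9, the other gelatinase, was at 8.80, 8.56 and 8.12 CPM in GM samples and at 23.8, 25.5 and 4.46 CPM in DM samples. DM replicate 3 lay below every GM sample and the other DM samples lay above them, so the groups overlapped. The log2 fold change of 1.08 (SE 0.46, 95% interval 0.05 to 2.10) did not pass after adjustment (adjusted p = 0.0632). Without DM replicate 3 it was 1.54 with an adjusted p of 1.57e-13, and with no filter on low counts MMP9 was called as well.

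MMP13 (ENSBTAG00000015059, chr15:5912037-5922736), a collagenase that cuts fibrillar collagen, showed the largest fold rise of the tested genes of the family. It had 11, 5 and 10 counts in GM samples and 148, 175 and 560 counts in DM samples, which are 0.265, 0.120 and 0.264 CPM against 4.38, 4.78 and 15.1 CPM. All DM samples were above all GM samples, and DM replicate 3 was 3.30 times the mean of the other DM samples. The log2 fold change was 5.21 (SE 0.58, adjusted p = 1.79e-05), and 4.40 without DM replicate 3, where it was still called. Per length MMP13 remained low, at 5.34 ± 4.02 CPM per kilobase in DM samples. MMP8, the neutrophil collagenase, had no count in any sample, which allows up to 0.0888 CPM in a sample if 3 counts are taken as the limit (counting error only).

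Of the membrane-type MMPs, which stay anchored in the cell surface, MMP14 and MMP15 were higher, and MMP16 and MMP17 lower, in DM samples. MMP14, the activator of the MMP2 precursor and itself a collagenase, was at 723, 746 and 702 CPM in GM samples and at 1189, 1035 and 1063 CPM in DM samples. The groups did not overlap, but the difference was less than 2-fold (log2 fold change 0.60, SE 0.068, adjusted p = 2.20e-05). MMP15 was at 14.5, 13.7 and 13.8 CPM in GM samples and at 26.7, 27.9 and 19.0 CPM in DM samples, with a log2 fold change of 0.81 (SE 0.13, adjusted p = 3.48e-04). MMP16 was slightly lower, with 34.8, 34.3 and 33.9 CPM in GM samples and 25.5, 27.4 and 28.2 CPM in DM samples (log2 fold change -0.35, SE 0.071, adjusted p = 0.00158). The groups of MMP15 and of MMP16 did not overlap either, and both changes were under 2-fold. MMP17 was downregulated between low levels, from 1.23 to 1.81 CPM in GM samples to 0.355 to 0.595 CPM in DM samples.

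MMP24 passed the thresholds on very few reads. Its counts were 0, 3 and 0 in GM samples and 5, 2 and 18 in DM samples, so 3 counts stood against 25 and the groups overlapped. The ratio, scaled by library size after TMM, was 9.39, with an exact interval of 2.87 to 48.6 that covers counting error only. The fitted log2 fold change was 3.07 (SE 1.16, adjusted p = 0.0398). The call was lost with DESeq2, under a stricter filter that left the gene untested, and when GM replicate 1, GM replicate 3, DM replicate 1 or DM replicate 3 was left out. MMP25 had 5 counts in all samples together.

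The remaining MMPs changed by less than 2-fold or were near the limit of detection. MMP23B, a membrane-anchored MMP that is released by cleavage within the cell, was at 32.3, 34.6 and 38.0 CPM in GM samples and at 58.3, 62.2 and 61.7 CPM in DM samples. The groups were apart, with a log2 fold change of 0.80 (SE 0.077, adjusted p = 6.05e-06). The listed gene lies wholly inside another gene on the same strand, which itself went from 11.4 ± 1.84 to 19.2 ± 5.02 CPM, and how reads in both were counted is not given in the sources used here. MMP19, which acts on basement membrane proteins, was at 63.6, 64.4 and 68.1 CPM in GM samples and at 57.4, 51.9 and 53.1 CPM in DM samples (log2 fold change -0.27, SE 0.068, adjusted p = 0.00522), so every DM sample was below every GM sample by a small margin. MMP11 (stromelysin-3) overlapped between groups, at 11.0, 14.2 and 12.2 CPM in GM samples and at 11.3, 11.0 and 9.65 CPM in DM samples; its log2 fold change of -0.23 had a 95% interval of -0.51 to 0.05 (adjusted p = 0.133). MMP7 and MMP28 had 10 and 54 counts over the 6 samples and did not pass. MMP20 and MMP27 had 2 and 5 counts and were not tested.

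The proteoglycan-cleaving ADAMTS genes, which cut aggrecan and versican, changed in both directions. Of 7 genes tested, 4 were upregulated and 1 was downregulated (71.4% called, against 25.3% of all tested genes). ADAMTS1 (ENSBTAG00000000706, chr1:8955134-8963815) was the most abundant of them in GM samples and fell most. It was at 244, 240 and 270 CPM in GM samples and at 47.8, 47.8 and 59.5 CPM in DM samples. The groups were far apart (log2 fold change -2.28, SE 0.096, adjusted p = 1.85e-08), a level in DM samples 0.206 times that in GM samples. ADAMTS4 (aggrecanase-1) was also lower, at 28.9, 27.5 and 25 CPM in GM samples and at 14.7, 15.8 and 17.6 CPM in DM samples, a difference below 2-fold with no overlap (log2 fold change -0.76, SE 0.095, adjusted p = 4.29e-05).

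ADAMTS5 (aggrecanase-2), the next gene to ADAMTS1 on chromosome 1, moved the other way. It was at 16.5, 15.9 and 18.2 CPM in GM samples and at 39.0, 34.7 and 41.7 CPM in DM samples. With no overlap between groups, its log2 fold change was 1.19 (SE 0.092, adjusted p = 1.11e-06). ADAMTS5 and ADAMTS1 lie 93.5 kb apart on the same strand with no listed gene between them. The ratio of the ADAMTS5 level to the ADAMTS1 level per length was 0.102 ± 0.0011 in GM samples and 1.13 ± 0.092 in DM samples.

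ADAMTS9 and ADAMTS20, related large enzymes that cut versican, both rose. ADAMTS9 was at 14.6, 12.8 and 10.9 CPM in GM samples and at 78.2, 70.6 and 39.3 CPM in DM samples. Every DM sample was above the GM samples, although DM replicate 3 had 0.529 times the mean of the other DM samples, and the log2 fold change was 2.30 (SE 0.22, adjusted p = 6.29e-06), or 2.55 without that sample. For ADAMTS20 the values were 17.8, 14.3 and 16.0 CPM in GM samples and 47.1, 40.5 and 37.8 CPM in DM samples, with no overlap and a log2 fold change of 1.38 (SE 0.11, adjusted p = 1.14e-06). A listed pseudogene overlaps ADAMTS20 on the same strand and went the other way, from 19.6 to 15.1 CPM. ADAMTS15 was upregulated below 5 CPM, and ADAMTS8 had 10 counts in all and did not pass.

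The make-up of the proteoglycan-cleaving group therefore differed between groups. Its summed level per length was 81.5 ± 3.42 CPM per kilobase in GM samples and 51.6 ± 2.0 in DM samples, a ratio of 0.633, although 4 of its 7 genes were upregulated. ADAMTS1 held 72.5 ± 1.84% of this sum in GM samples and 23.7 ± 3.64% in DM samples. The share of ADAMTS5 went from 7.36 to 26.6%, that of ADAMTS9 from 2.67 to 20.6% and that of ADAMTS20 from 3.42 to 14.1%. Without ADAMTS1, the sum of the other 6 genes was 22.3 ± 0.98 in the GM group and 39.4 ± 3.11 in the DM group.

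The procollagen N-proteinases, which remove the amino-terminal propeptide of fibrillar procollagens, did not move together. ADAMTS2, by far the most abundant ADAMTS gene per length, was at 556, 569 and 567 CPM in GM samples and at 905, 774 and 711 CPM in DM samples. It was higher in every DM sample, by less than 2-fold (log2 fold change 0.50, SE 0.084, adjusted p = 3.95e-04), and it held 48.9 ± 1.06% of the summed ADAMTS level in GM samples and 57.7 ± 3.46% in DM samples. ADAMTS14 was lower in every DM sample, with 39.9, 35.0 and 43.1 CPM against 21.1, 23.7 and 23.9 CPM (log2 fold change -0.78, SE 0.093, adjusted p = 3.14e-05). ADAMTS3 (ENSBTAG00000006507, chr6:89162542-89460195), which also processes the growth factor VEGFC, was downregulated from 4.99, 4.59 and 3.98 CPM to 1.42, 1.48 and 0.865 CPM. No DM sample reached the lowest GM sample (log2 fold change -1.85, SE 0.24, adjusted p = 5.75e-05).

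Among the other ADAMTS genes, ADAMTS17 (ENSBTAG00000019823, chr21:6514360-6924114), a fibrillin-associated enzyme linked to Weill-Marchesani syndrome, rose most. Its values were 5.02, 4.37 and 4.30 CPM in GM samples and 31.8, 28.0 and 35.0 CPM in DM samples. With the groups well apart, the log2 fold change was 2.79 (SE 0.12, adjusted p = 1.73e-08), a 6.92-fold rise. Both listed ADAMTS17 transcripts, of 3243 and 1815 bases, were called upregulated, with log2 fold changes of 2.78 and 2.92. ADAMTS10, the fibrillin-binding relative that is linked to the same syndrome, was higher by less than 2-fold, at 40.0, 40.0 and 38.0 CPM in GM samples and 71.3, 64.3 and 79.3 CPM in DM samples (log2 fold change 0.87, SE 0.083, adjusted p = 6.00e-06). ADAMTS6, its closest relative, overlapped between groups, with 52.1, 43.9 and 46.6 CPM in GM samples and 51.5, 52.5 and 67.0 CPM in DM samples, and its log2 fold change of 0.26 (95% interval 0.02 to 0.50) did not pass after adjustment (adjusted p = 0.0556).

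ADAMTS7 and ADAMTS12, a pair of mucin-domain enzymes known to cut COMP (cartilage oligomeric matrix protein), are both expressed. ADAMTS7 was at 25.2, 27.3 and 27.1 CPM in GM samples and at 79.1, 72.3 and 84.4 CPM in DM samples, with no overlap and a log2 fold change of 1.57 (SE 0.078, adjusted p = 5.47e-08). ADAMTS12 overlapped, at 8.61, 6.78 and 6.51 CPM in GM samples and at 9.44, 7.49 and 16.2 CPM in DM samples. Its log2 fold change of 0.60 (95% interval 0.04 to 1.15, adjusted p = 0.0578) rested on DM replicate 3 and was 0.22 without it. ADAMTS16 was upregulated from 6.65, 5.50 and 5.86 CPM to 17.9, 15.3 and 10.4 CPM, with all DM samples above the GM samples (log2 fold change 1.28, SE 0.19, adjusted p = 1.40e-04). ADAMTS19 was downregulated at low levels, between 2.36 and 3.51 CPM in GM samples and between 0.811 and 1.04 CPM in DM samples. ADAMTS13, the enzyme that trims von Willebrand factor, had 4 counts in all, and ADAMTS18 had none.

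The ADAMTSL proteins bind the matrix but do not cut it. ADAMTSL2 (ENSBTAG00000007492, chr11:104474620-104505740), a binding partner of fibrillin linked to geleophysic dysplasia, had the second highest fold rise of the genes whose groups did not overlap. It was at 0.313, 0.192 and 0.158 CPM in GM samples (6 to 13 counts) and at 3.05, 3.11 and 3.89 CPM in DM samples (103 to 144 counts). Its log2 fold change was 3.89 (SE 0.31, adjusted p = 1.59e-06). ADAMTSL4, linked to displaced eye lenses, was upregulated from 14.0, 13.3 and 13.9 CPM to 51.9, 49.2 and 27.7 CPM, with DM replicate 3 at 0.548 times the mean of the other DM samples but still above all GM samples (log2 fold change 1.65, SE 0.19, adjusted p = 2.92e-05). Without that sample its log2 fold change was 1.89, and the gene was still called.

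ADAMTSL1 and ADAMTSL3 (the punctins) split within the DM group. ADAMTSL3 was at 14.0, 12.2 and 13.4 CPM in GM samples and at 28.5, 25.6 and 9.13 CPM in DM samples. Since DM replicate 3 was below and the others above the GM samples, its log2 fold change of 0.67 (95% interval -0.03 to 1.37) did not pass (adjusted p = 0.0859), and without that sample it was 1.04 with an adjusted p of 2.48e-10. The 3 ADAMTSL3 transcripts had log2 fold changes of 0.65, 0.78 and 0.79, none called. ADAMTSL1 had 19.8, 16.9 and 17.1 CPM in GM samples and 23.4, 22.2 and 11.9 CPM in DM samples. The sign of its log2 fold change of 0.09 (95% interval -0.37 to 0.55, adjusted p = 0.721) turned to -0.01 with library size alone as the scaling, and it was 0.35 without DM replicate 3.

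TIMP1, TIMP2 and TIMP3 were higher and TIMP4 was lower in every DM sample than in any GM sample. TIMP1, the inhibitor with the highest level, was at 554, 543 and 581 CPM in GM samples and at 1032, 835 and 861 CPM in DM samples, a difference under 2-fold (log2 fold change 0.70, SE 0.083, adjusted p = 2.83e-05). TIMP2, the partner of MMP14 in MMP2 activation, was at 341, 385 and 376 CPM in GM samples and at 578, 565 and 558 CPM in DM samples, with a similar log2 fold change of 0.63 (SE 0.064, adjusted p = 9.31e-06). Neither gene passed the fold threshold, although the groups were apart for both.

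TIMP3 (ENSBTAG00000020638, chr5:71751415-71809052), the inhibitor that is held in the matrix and also blocks aggrecanases and ADAM17, rose most of the TIMPs. It was at 88.8, 77.9 and 87.5 CPM in GM samples and at 299, 278 and 311 CPM in DM samples. The log2 fold change was 1.81 (SE 0.074, adjusted p = 1.60e-08), and TIMP3 went from 3.70 ± 0.28% to 7.78 ± 0.63% of the summed TIMP level. TIMP4 (ENSBTAG00000020263, chr22:57602210-57609085), the least abundant, was at 1.49, 1.49 and 0.976 CPM in GM samples and at 0.0888, 0.246 and 0.270 CPM in DM samples (3 to 10 counts), with a log2 fold change of -2.68 (SE 0.43, adjusted p = 2.96e-04). TIMP3 and TIMP4 lie within the synapsin genes SYN3 and SYN2 on the opposite strand, and whether strand was used in counting is not given in the sources used here. SYN3 went from 0.0256 to 0.696 CPM, far below TIMP3, and SYN2 went from 3.30 to 8.19 CPM, against the direction of TIMP4.

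Summed per length, the TIMP genes were at 1.05, 1.05 and 1.12 times the MMP genes in GM samples and at 0.596, 0.592 and 0.609 times in DM samples. The groups did not overlap, and the change was -0.84 on the log2 scale. The lower ratio depended on MMP2: the ratio of TIMP genes to the MMP genes without MMP2 was 2.17, 2.14 and 2.33 in GM samples and 2.54, 2.47 and 2.49 in DM samples, a change of 0.18 in the other direction. Taking out MMP2 was chosen after the data were seen. MMP2 was 1.52 ± 0.094 times TIMP2 in GM samples and 4.32 ± 0.31 times in DM samples, whereas TIMP2 over MMP14 was 0.849 ± 0.055 and 0.868 ± 0.051, with overlapping samples. These are ratios of RNA per length within a sample and carry no test.

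**Figure D3:**
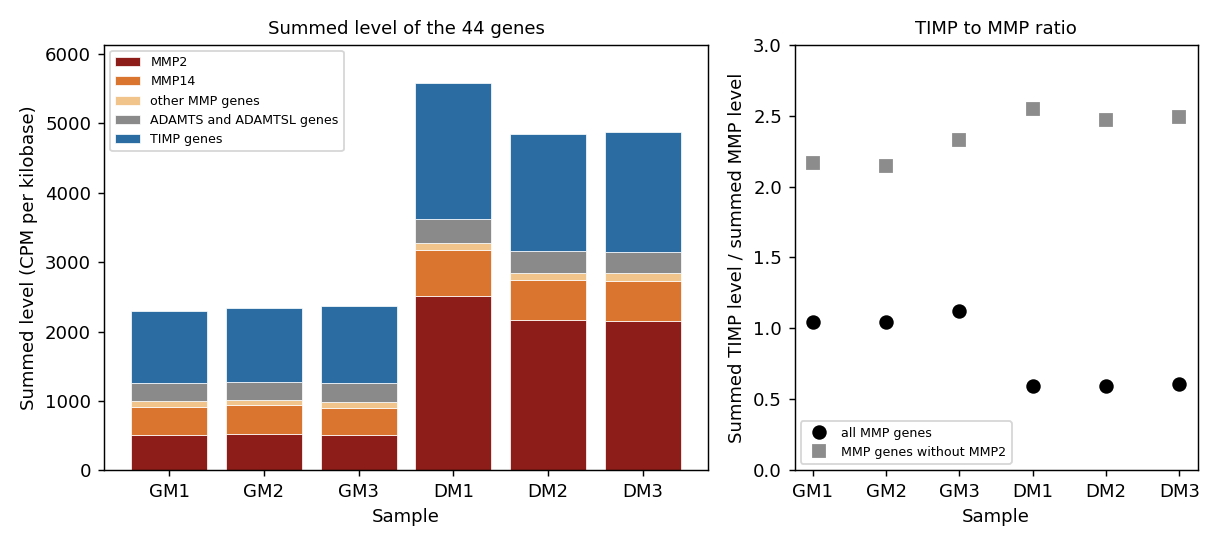
Left, stacked bars of the summed level of the 44 genes in each sample, in CPM per kilobase from 0, with MMP2 in dark red, MMP14 in orange, other MMP genes in light orange, ADAMTS and ADAMTSL genes in grey and TIMP genes in blue; right, the ratio of summed TIMP to summed MMP level in each sample, with all MMP genes (black circles) and without MMP2 (grey squares). The dark red part goes from 517 on average in GM samples to 2274 in DM samples, the black circles lie at 1.05 to 1.12 in GM samples and at 0.592 to 0.609 in DM samples, and the grey squares are slightly higher in DM samples.

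DM replicate 3 differed by over 1.5-fold from both other DM samples for 7 of the 28 genes of the family with at least 5 CPM in DM samples, against 3.8% of the 10446 genes at that level in all. The fold limit was chosen after the data were seen. It was lower for MMP9 (0.181 times the mean of the other DM samples), ADAMTSL3 (0.338 times), ADAMTSL1 (0.522 times), ADAMTS9 and ADAMTSL4, and higher for ADAMTS12 (1.91 times) and MMP13. In the same sample the summed fibroblast markers were the lowest of the DM group and the summed pericyte markers the highest, and their part in these differences was not tested. The pericyte sum was raised there mainly by CSPG4, at 147 CPM against 58.5 and 53.6 CPM in DM replicates 1 and 2. PDGFRB was at 254 CPM, below the 259 CPM of DM replicate 1. MMP2, MMP14, TIMP1, TIMP2 and TIMP3 in that sample were between 0.918 and 1.08 times the mean of the other DM samples.

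**Figure D4:**
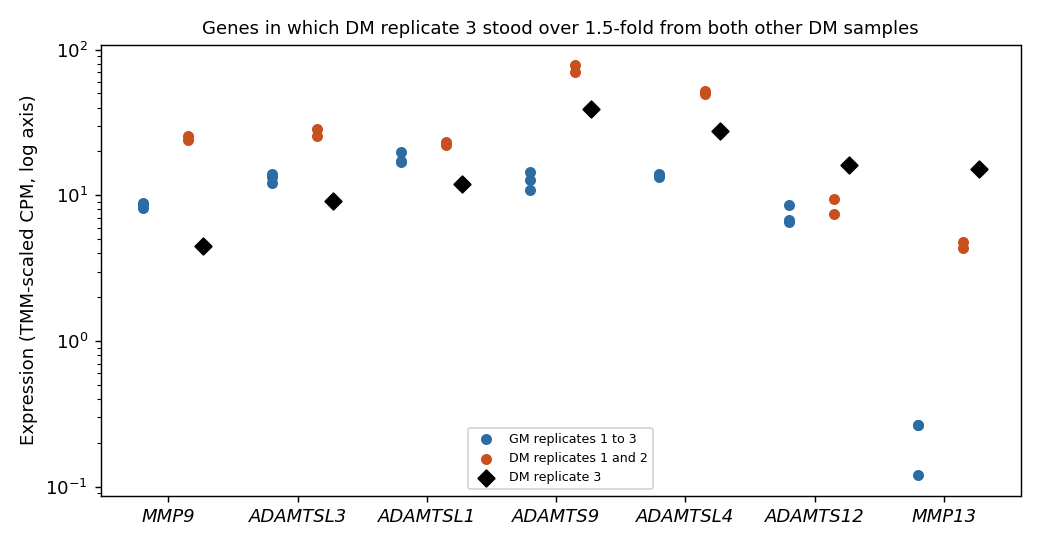
Expression in TMM-scaled CPM on a log axis of the 7 genes in which DM replicate 3 (black diamonds) was over 1.5-fold from both other DM samples (orange), with the GM samples in blue. The diamond is below the orange points for MMP9, ADAMTSL3, ADAMTSL1, ADAMTS9 and ADAMTSL4, and for the first 3 of these also below the blue points, while it is above the orange points for ADAMTS12 and MMP13.

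Genes that act with this family were described in 4 lists. Of 8 tested activators, 2 were upregulated and 3 downregulated, where 15% and 10.3% of all tested genes were, and their median log2 fold change was -0.07 beside 0.03 for all tested genes. PLAU, the urokinase that turns plasminogen into plasmin, was at 306, 294 and 298 CPM in GM samples and at 77.5, 66.4 and 79.4 CPM in DM samples (log2 fold change -2.01, SE 0.076, adjusted p = 1.05e-08), and its receptor PLAUR and the convertase FURIN, which activates MMP14, were the other downregulated genes. PCSK6, another proprotein convertase, was at 0.723, 0.817 and 0.791 CPM in GM samples and at 4.12, 3.28 and 1.86 CPM in DM samples (log2 fold change 1.98, SE 0.31, adjusted p = 2.54e-04), and PCSK5 was the other upregulated gene. The groups of PLAU and of PCSK6 did not overlap. Plasminogen itself (PLG) had 4 counts in all.

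Of 9 other inhibitors and uptake receptors, 7 were upregulated and 1 downregulated (88.9% called, against 25.3% of all tested genes), with a median log2 fold change of 1.53 beside 0.03 for all tested genes. A2M, the general proteinase trap of plasma, was at 3.30, 1.90 and 3.03 CPM in GM samples and at 15.6, 12.9 and 14.2 CPM in DM samples (log2 fold change 2.37, SE 0.19, adjusted p = 1.75e-06). PCOLCE2, an enhancer of procollagen cleavage, fell from 3.28, 4.59 and 3.67 CPM to 0.266, 0.355 and 0.649 CPM (log2 fold change -3.16, SE 0.33, adjusted p = 9.98e-06), while its relative PCOLCE rose. Both enhancers sit in this list although they do not block proteinases. RECK, the membrane-anchored inhibitor of MMP14, MMP2 and MMP9, the uptake receptors LRP1 and MRC2, and PAPLN and SPOCK2 were the others upregulated.

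Of 14 ADAM and astacin genes tested, 1 was upregulated and 4 were downregulated (35.7% called, against 25.3% of all tested genes). ADAM23, ADAM22 (mean 0.299 CPM in GM and 0.104 CPM in DM samples) and TLL1 (1.07 and 0.375 CPM) were downregulated at low levels, and ADAM8 was the other downregulated gene. The more abundant ADAM9, ADAM10, ADAM12, ADAM17, ADAM19 and BMP1 were not called. The median log2 fold change of the list was -0.18. Without DM replicate 3 there were 4 calls, with ADAM22 and ADAM33 lost and TLL2 gained. ADAM8 was at 26.5, 30.1 and 28.5 CPM in GM samples and at 4.29, 4.43 and 1.97 CPM in DM samples (log2 fold change -2.99, SE 0.23, adjusted p = 1.02e-06), and ADAM23 went from 1.52, 0.769 and 1.08 CPM to 0, 0.219 and 0.108 CPM (log2 fold change -3.30, SE 0.66, adjusted p = 0.00122). All DM samples of both genes were below all GM samples. ADAM12, a muscle ADAM that is known for its part in myoblast fusion, was at 172 ± 5.24 CPM in GM samples and 166 ± 10.3 CPM in DM samples (adjusted p = 0.485), and this gene was picked after its values were seen.

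Of the 22 matrix substrates tested, 12 were upregulated and 1, VWF, was downregulated (59.1% called, against 25.3% of all tested genes), with a median log2 fold change of 1.27 beside 0.03 for all tested genes. NID1 (nidogen, a basement membrane linker) was at 79.2, 66.5 and 76.3 CPM in GM samples and at 536, 450 and 567 CPM in DM samples (log2 fold change 2.81, SE 0.10, adjusted p = 7.63e-09). DCN (decorin) went from 438, 437 and 465 CPM to 2734, 2584 and 1614 CPM (log2 fold change 2.37, SE 0.16, adjusted p = 5.21e-07), and both genes had all DM samples above all GM samples. COL1A1, COL3A1 and DCN of this list are also fibroblast markers, and VWF is also an endothelial marker. VWF (mean 1.18 CPM in GM and 0.443 CPM in DM samples) and the upregulated COL2A1 (0.146 and 0.475 CPM) were called at low levels. ACAN (aggrecan), the substrate of the aggrecanases, was at 2.84, 3.55 and 20.4 CPM in DM samples against 2.92 ± 0.17 CPM in GM samples, so the groups overlapped although the gene was called (log2 fold change 1.62, adjusted p = 0.0410). The call rested on DM replicate 3, without which the log2 fold change was 0.14 (SE 0.20, adjusted p = 0.556), and ACAN was picked after its values were seen. Without that sample VCAN and COMP were called upregulated, which left 13 upregulated substrates.

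At the transcript level 41 of the 47 listed transcripts of the family were tested, and 14 were upregulated and 5 downregulated, against 25.6% of all 16352 transcripts tested called in either direction. This adds little to the gene counts, because 42 of the 44 genes have 1 listed transcript whose counts are those of the gene. On the chromosomes, MMP13, MMP8, MMP27, MMP20 and MMP7 follow each other on chromosome 15, and of these MMP13 alone had more than 10 counts. ADAMTS8 and ADAMTS15 are neighbours on opposite strands of chromosome 29, 27.3 kb apart.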

How the data were processed

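PolyA RNA-seq of 3 GM and 3 DM samples of buffalo MuSCs was analysed from the deposited gene and mRNA tables, and groups were taken from the sample labels. The deposited count columns hold raw counts made by the authors, who aligned reads with HISAT2 and counted them on an annotation. The deposited RPKM columns were computed by the authors from those counts, the Length column and the total of each sample. The study's methods name a buffalo genome, the submitters' processing notes name Bowtie 0.12.2 and mouse builds, and the tables carry cattle (Bos taurus) Ensembl identifiers with no build. Coordinates are those of the tables, and strand use in counting is not given in the sources used here. The authors' lists of differentially expressed features (fold changes, p-values and q-values) and the ncRNA table were not used, and 0 sample columns were left unmapped.

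Genes with at least 10 counts over the 6 samples were fitted in R 4.3.3 with edgeR 4.0.16 (TMM, glmQLFit and glmQLFTest, no covariate), Benjamini-Hochberg adjustment ran over all genes tested, and calls used the study's thresholds, an absolute log2 fold change above 1 with an adjusted p under 0.05. Standard errors came from the F statistic and 95% intervals from the same fit. The script was tested on simulated data. The summed counts on genes were 36657735 to 40305237 for the GM group and 35615864 to 38177614 for the DM group, so low genes are limited by counting error. Per-sample values are given for genes of at least 5 CPM in a group, the called gene of largest change in each role group and every TIMP, and in the pathway lists for the 2 called genes of largest change. The genes, lists and tests were chosen with earlier results of these data known. Alternatives were DESeq2 1.42.0, other scalings and filters, no minimum fold, the replicate number as a block, and leaving out each sample. Same-numbered GM and DM samples did not deviate together (r from -0.0467 to -0.00813), so the numbers were not taken as pairs. No sequence is printed.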

Additional observations from a re-analysis of the deposited data

How the results depend on the processing

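Of the 18 calls, 17 were shared by every alternative run except the study's RPKM rule, which keeps genes of at least 1 RPKM in more than 50% of samples; MMP24 was the exception, lost in 7 of them. Under that rule 27 of the 44 genes were tested and 10 called (1 lower), because MMP13, MMP17, ADAMTS3, ADAMTS15, ADAMTS19, ADAMTSL2, TIMP4 and MMP24 were filtered out. Over all genes 2197 of the 11587 tested under that rule were called (1232 higher and 965 lower). Among the genes of each list that passed the rule, the calls were 3 activators (1 higher), 5 other inhibitors (0 lower), 2 ADAM and astacin genes (1 lower) and 0 lower substrates. With no minimum fold, 29 genes of the family (20 higher and 9 lower), 9813 genes in all (4920 higher and 4893 lower), 8 activators (4 higher), 10 ADAM and astacin genes (4 higher), 2 lower substrates and 30 transcripts (9 lower) were called. With library size alone no ADAM or astacin gene was called higher (0). Leaving out single samples gave 3 to 5 calls in that list, 0 to 1 of them higher, the lowest without GM replicate 2. Other inhibitors and uptake receptors gave 6 calls with library size alone, 5 of them higher (7 with TMM). Substrates gave 11 calls with that scaling, 10 of them higher (12 with TMM). With library size alone and with the deposited RPKM, the log2 ratio of the summed level was 0.25 for the other MMPs (0.35 with TMM) and -0.76 for the proteoglycan-cleaving ADAMTS genes (-0.66 with TMM). The change of ADAMTSL1 was -0.0075 with library size alone, -0.0702 without DM replicate 1 and -0.0135 without DM replicate 2. The TIMP to MMP ratio changed by 0.18 without MMP2, against -0.84. Leaving out single samples gave 17 to 19 calls in the family, and the causes of these differences were otherwise not tested.

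With the replicate number as a block, 17 genes of the family were called, MMP24 alone being lost (log2 fold change 2.84, adjusted p = 0.0629). Counts of a few reads, as for MMP24, MMP7 and ADAMTS8, limit what could be detected.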

Other observations

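Between MMP13 and MMP8 on chromosome 15 the gene table lists 4 protein-coding rows that carry an identifier and no symbol, and all 4 were lower in DM samples, with log2 fold changes from -5.95 to -2.69 in edgeR. ENSBTAG00000048029 (chr15:6124135-6132776 in the tables' cattle coordinates) had 158, 177 and 111 counts in GM samples and 13, 7 and 5 counts in DM samples, with no overlap (log2 fold change -3.95, SE 0.36, adjusted p = 3.80e-06). ENSBTAG00000037768 (chr15:6007068-6034291) had 100, 106 and 81 counts in GM samples and 12, 20 and 1 counts in DM samples (log2 fold change -2.93, SE 0.54, adjusted p = 7.64e-04). Both ends of the range rest on few reads. ENSBTAG00000020007 (-5.95, SE 1.33) had 5, 8 and 11 counts in GM samples and 0 in every DM sample. ENSBTAG00000015818 (-2.69, SE 0.77) had 22, 35 and 12 counts in GM samples and 6, 3 and 0 in DM samples. MMP13, their named neighbour, went the other way. In the RefSeq annotation of the buffalo assembly NDDB_SH_1, 6 protein-coding genes lie between MMP13 and MMP8, among them MMP1, MMP3 and MMP12; which deposited row, if any, stands for which of these was not tested. These rows were picked after their values were seen and are not among the 44 genes.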
